A study of Mus musculus with 6 samples.

Results

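The Hedgehog pathway genes were 9 genes chosen by name as receptors, co-receptors and transcription factors of Hedgehog signalling: Ptch1, Hhip, Boc, Cdon, Gas1, Smo, Gli1, Gli2 and Gli3. Each had 1 probe set assigned to that gene alone in the platform annotation, so all 9 were measured among 22180 named genes. They were read in dermal fibroblasts of 3 K14-PTHrP (KrP) samples and 3 wild-type (WT) samples, each on 1 array. KrP mice carry a transgene in which the keratin 14 promoter, active in basal keratinocytes, drives parathyroid hormone-related protein (PTHrP), and their ventral skin is nipple-like. WT mice were littermates, and both groups were C57BL/6 females of 8 to 12 weeks. The WT skin is described as telogen skin, the resting phase of the hair cycle, while the KrP labels give no hair cycle stage. Viable CD140-positive cells were sorted from pooled preparations, with CD31, CD45, CD117 and CD49f as markers to exclude, and the labels name 3 mice as the source without saying whether per sample or per genotype. The p-values thus reflect only how much these samples vary, and that variation may be technical.

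Hedgehog ligands bind the receptor Patched (Ptch1), which otherwise holds the transducer Smoothened (Smo) inactive at the primary cilium. Active Smo lets the Gli factors act as activators, whereas without ligand Gli3 in particular is cut to a repressor. Ptch1, Gli1 and Hhip are themselves widely induced by the pathway, so their transcripts are commonly used as its readouts. In skin, the hair follicle epithelium is the best known source of Sonic hedgehog, and the dermal papilla and nearby dermis respond to it.

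None of the 9 genes differed between KrP and WT fibroblasts at a limma adjusted p under 0.05, where 2.18% of all genes did (1.15% higher and 1.03% lower in KrP). Ptch1 showed the largest difference, 1.76-fold lower in KrP samples, and was followed by Smo, 1.39-fold higher, and by Gas1 and Boc, 1.38-fold and 1.31-fold lower. Gli2, Gli3, Cdon, Hhip and Gli1 had differences between -0.21 and 0.20 on the log2 scale. Without adjustment, 2 of the 9 genes (Ptch1 and Boc) had p under 0.05, against 16.0% of all genes. With the replicate number as a block, 2 of the 9 passed, Ptch1 as lower and Smo as higher in KrP samples, where 8.35% of all genes passed (5.33% higher and 3.02% lower). Ptch1 and Boc were also the 2 members whose KrP and WT values did not overlap, which held for 20.3% of all genes (11.4% higher and 8.93% lower in KrP). In bulk samples, fewer cells that express a gene and less RNA per cell cannot be told apart.

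The promoters of Ptch1 and Smo are shown because these are the members that passed with the block, in opposite directions. Both are RefSeq sequences of the mouse assembly GRCm38.p6, 250 bases before to 50 bases after an annotated gene start, written 5′ to 3′ on the gene's strand, with the GC box GGGCGG (either strand) in capitals.
Ptch1, chr13:63565686-63565985, minus strand: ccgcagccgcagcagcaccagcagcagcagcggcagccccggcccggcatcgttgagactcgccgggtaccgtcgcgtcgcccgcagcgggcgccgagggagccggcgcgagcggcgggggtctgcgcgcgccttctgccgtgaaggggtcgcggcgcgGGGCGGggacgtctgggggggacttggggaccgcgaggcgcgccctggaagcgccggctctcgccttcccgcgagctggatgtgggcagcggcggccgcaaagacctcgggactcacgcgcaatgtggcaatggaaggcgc
Smo, chr6:29735247-29735546, plus strand: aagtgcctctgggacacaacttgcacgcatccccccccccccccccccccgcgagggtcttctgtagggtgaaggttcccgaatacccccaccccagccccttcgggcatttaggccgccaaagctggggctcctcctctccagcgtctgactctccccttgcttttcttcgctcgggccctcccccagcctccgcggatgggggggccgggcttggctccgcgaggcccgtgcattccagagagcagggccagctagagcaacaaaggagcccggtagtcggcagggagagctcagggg
The Ptch1 window had a GC content of 76.3% with 47 CpG dinucleotides and 1 GC box, and the Smo window had 67.7% with 17 CpG dinucleotides and 0 GC boxes. A table of 32851 such windows held 7 of the 9 members, all but Gli1 and Boc. The Gli binding motif GACCACCCA, searched on both strands, was in 0 of these 7 windows and in 0.253% of all windows. GGGCGG was in 5 of the 7, those of Gli2, Gli3, Hhip, Gas1 and Ptch1, and in 35.7% of all windows.

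As a guide to background, the mean values of 1105 olfactory receptor genes had a median of 4.04 and a 95th percentile of 6.28. The sorted cells carried fibroblast markers: the matrix proteoglycan Dcn, which the sort did not use, had log2 values of 13.81 to 13.87 in KrP and 13.76 to 13.87 in WT samples. Of the 9 markers 0 passed, but 8 had a higher mean in KrP, with a median log2 difference of 0.48. Over all genes 51.4% were higher, with a median of 0.01. With the block 3 of the 9 rose (Pdgfrb, Col1a1 and Col1a2), where 5.33% of all genes did. Pdgfrb and Pdgfra, both among the 9, encode CD140 proteins, and CD140 was the sort marker. Of the genes of excluded markers, Ptprc (CD45) lay between 4.44 and 5.15 in all 6 samples and Kit (CD117) between 5.92 and 6.44. Pecam1 (CD31, 6.49 to 7.13) and Itga6 (CD49f, 6.49 to 8.16, highest in KrP 2) lay above that 95th percentile in every sample, and Kit did so in WT 1 and WT 2. Arrays correlated by 0.986 to 0.994 within a group and by 0.975 to 0.989 across groups. Among genes that passed the test, KrP 2 was the KrP sample nearest the WT mean for 64.2%, against 22.8% for KrP 1 and 13.0% for KrP 3. WT 2 carried more keratinocyte signal than the other samples: Krt17 was at 9.06 there against at most 6.10 elsewhere, and 6 of 11 measured keratinocyte markers were highest in WT 2. The summed linear signal of these markers was 1138 to 1285 in KrP samples and 1151 to 2012 in WT samples, with the top value in WT 2. The summed signal of 7 endothelial markers was 760.8 to 951.8 in KrP samples and 972.4 to 1304 in WT samples, without overlap, in the same direction as Ptch1 and Boc. Kdr had the largest difference of the 7 (log2 difference -1.41, limma adjusted p = 0.0658, or 0.00158 with the block). Without Kdr the sums of the other 6 markers overlapped, at 602.1 to 735.0 in KrP and 565.1 to 786.2 in WT samples. The nearest KrP and WT sums of all 7, 951.8 and 972.4, lay close together. Sums without another marker were not computed, so the separation is not shown to rest on Kdr alone. Of the 7 markers 2 fell, Tek and Cldn5, where 1.03% of all genes fell. They were named with the others here after their values were seen. Cdh5 was higher in KrP (0.54) and Pecam1 had a difference of -0.05, and neither passed. The part of these markers in the results was not tested beyond the values given without a sample.

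**Figure D1:**
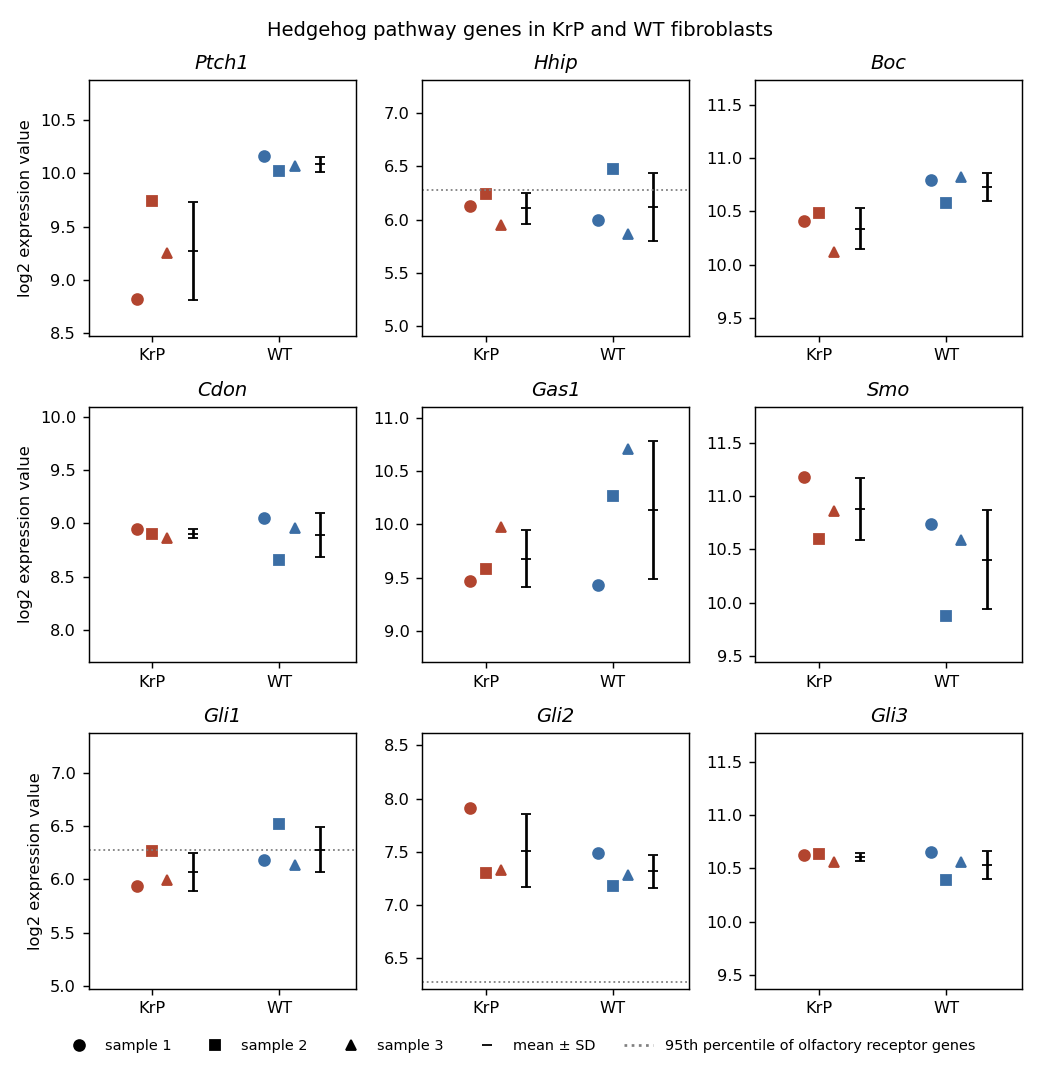
Log2 expression values (y axis, spanning the same number of log2 units in every panel) of the 9 Hedgehog genes in KrP (left) and WT (right) fibroblasts. Points are samples with the marker giving the sample number, bars are the mean ± SD of 3 samples, and the dotted line at 6.28 marks the olfactory receptor 95th percentile; Ptch1 and Boc are the genes whose groups do not overlap.

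Ptch1, the receptor that binds Hedgehog ligands and restrains Smo, had log2 values of 8.82, 9.74 and 9.25 in KrP samples 1 to 3, against 10.16, 10.02 and 10.07 in WT samples 1 to 3. Every KrP sample lay below every WT sample, KrP 1 lowest and KrP 2 within 0.28 of WT 2. The mean was 9.27 ± 0.46 in KrP and 10.08 ± 0.07 in WT samples (SD, n = 3 each), so the KrP samples were also the more scattered. The log2 difference was -0.81 ± 0.21 (SE; 95% interval -1.31 to -0.32), and the limma adjusted p was 0.110, or 0.0497 with the replicate block, just under the threshold. The adjusted p was 0.0122 without KrP 2, with a log2 difference of -1.05, and reached 0.354 without KrP 3. An exact two-sided permutation test gave p = 0.10, the smallest that 3 samples against 3 can give.

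Hhip encodes a membrane protein that binds Hedgehog ligands as a decoy and is another gene the pathway induces. Its log2 values were 6.13, 6.24 and 5.95 in KrP samples and 6.00, 6.48 and 5.87 in WT samples. The groups overlapped fully, and only WT 2 exceeded the olfactory 95th percentile. The log2 difference was -0.01 ± 0.17 (SE; 95% interval -0.40 to 0.38; limma adjusted p = 0.988). Differences at this brightness are compressed, so a change of Hhip was not measurable with confidence here.

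Boc, Cdon and Gas1 encode cell surface co-receptors that help Ptch1 bind the ligand. Boc had log2 values of 10.41, 10.48 and 10.12 in KrP samples, against 10.79, 10.58 and 10.82 in WT samples. All KrP values lay below all WT values, although KrP 2 and WT 2 were 0.10 apart. The log2 difference was -0.39 ± 0.13 (SE; 95% interval -0.70 to -0.09), with a limma adjusted p of 0.190, or 0.115 with the block.

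Cdon, the closest relative of Boc, had log2 values of 8.95, 8.90 and 8.86 in KrP samples and 9.05, 8.66 and 8.96 in WT samples. The KrP values fell inside the WT range, and the log2 difference was 0.01 ± 0.14 (SE; 95% interval -0.30 to 0.33; limma adjusted p = 0.979). The sign of this difference turned with quantile normalisation (-0.09). The 95% interval of Cdon spanned 0.812-fold to 1.25-fold, and that of Boc 0.618-fold to 0.939-fold; the difference between the 2 genes was not tested.

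Gas1, a lipid-anchored co-receptor, had log2 values of 9.47, 9.58 and 9.98 in KrP samples and 9.43, 10.27 and 10.71 in WT samples. It varied most within WT, where WT 1 lay below all KrP samples, and WT 2 and WT 3 above them all. The log2 difference was -0.46 ± 0.30 (SE; 95% interval -1.16 to 0.24; limma adjusted p = 0.518, or 0.151 with the block). Without WT 3 the log2 difference was -0.17, and without WT 1 it was -0.81, so single WT samples set its size. Between samples of the same number the differences were 0.04, -0.69 and -0.73 on the log2 scale.

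Smo encodes the membrane protein that passes the signal inward once Ptch1 is occupied. Its log2 values were 11.18, 10.60 and 10.86 in KrP samples, against 10.74, 9.87 and 10.59 in WT samples. The groups overlapped, with WT 1 above KrP 2, and WT 2 stood lowest of all 6 samples. The means were 10.88 ± 0.29 in KrP and 10.40 ± 0.47 in WT samples (SD, n = 3 each), a log2 difference of 0.48 ± 0.24 (SE; 95% interval -0.07 to 1.03; limma adjusted p = 0.381). Every same-numbered pair was higher in KrP, by 0.44, 0.73 and 0.27 on the log2 scale, and with the block the standard error was 0.11 and the adjusted p 0.0461. With 1 sample left out at a time, the log2 difference ran from 0.22 without WT 2 to 0.65 without WT 1, and was 0.33 without KrP 1. Why single samples moved it was not tested.

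The Gli factors carry the signal to DNA. Gli1, an activator and a standard readout of the pathway, had log2 values of 5.94, 6.27 and 5.99 in KrP samples and 6.18, 6.52 and 6.13 in WT samples. The groups overlapped, WT 2 alone exceeded the olfactory 95th percentile, and the 6-sample mean of Gli1 was above that of 94.0% of olfactory receptor genes. The log2 difference was -0.21 ± 0.15 (SE; 95% interval -0.54 to 0.12; limma adjusted p = 0.543, or 0.268 with the block). All 3 same-numbered pairs were lower in KrP, by -0.24, -0.25 and -0.14, but a change of Gli1 was not measurable with confidence so near background.

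Gli2, the main activator among these factors, had log2 values of 7.91, 7.30 and 7.33 in KrP samples and 7.49, 7.18 and 7.28 in WT samples. KrP 1 stood above the other 5 samples, and the log2 difference of 0.20 ± 0.18 (SE; 95% interval -0.23 to 0.62; limma adjusted p = 0.676) was -0.0017 without KrP 1. Gli3, the main repressor, had log2 values of 10.62, 10.63 and 10.56 in KrP samples and 10.65, 10.39 and 10.56 in WT samples. It was the least variable member, with an SD of 0.10 over the 6 samples and a log2 difference of 0.07 ± 0.11 (SE; 95% interval -0.18 to 0.32; limma adjusted p = 0.821). The interval of Gli3 ran from 0.885-fold to 1.25-fold. Array values measure transcripts only, so processing of Gli3 to its repressor form was not read.

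**Figure D2:**
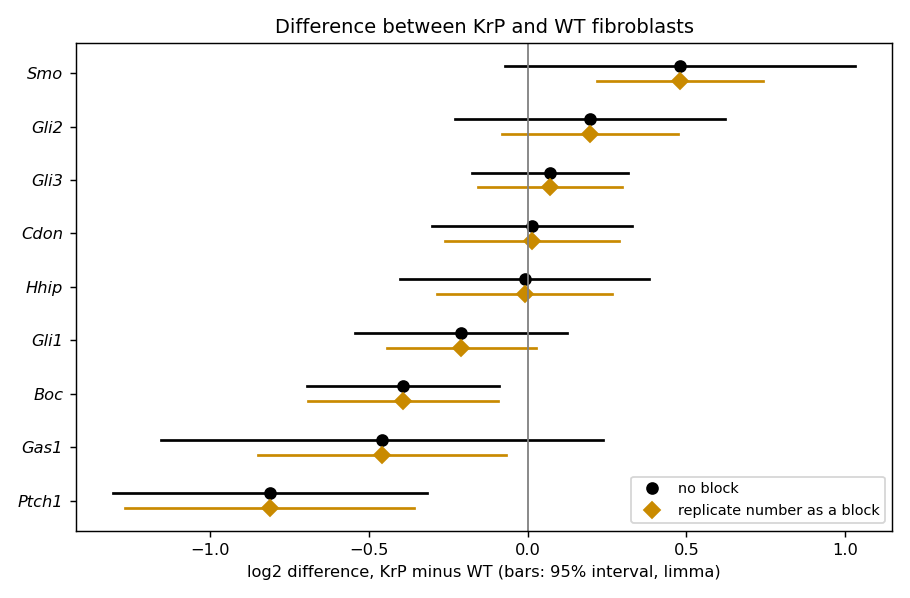
Log2 difference between KrP and WT fibroblasts for the 9 Hedgehog genes, with 95% intervals from limma without a block (black circles) and with the replicate number as a block (orange diamonds). The intervals of Ptch1 and Boc lie below 0 in both fits, and those of Smo above 0 and Gas1 below 0 only with the block; these intervals are not adjusted for the number of genes.

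The genes whose values over the 6 samples most resembled those of Ptch1, Smo and Gas1, the 3 members with the largest spread, were taken from 3260 genes above background with an SD of at least 0.3. For Ptch1 they were Prdm1 (Pearson r = 0.996, 6 samples), Ivns1abp (0.994) and Tspan18 (0.990). Prdm1, the transcription factor Blimp1 known from the papillary fibroblast lineage, had log2 values of 8.93, 10.36 and 9.50 in KrP and 10.97, 10.91 and 10.82 in WT samples. Like Ptch1, it was lowest in KrP 1 and showed no overlap, with a log2 difference of -1.30 ± 0.31 (SE; limma adjusted p = 0.0823, or 0.0274 with the block). For Ptch1, 104 of the 3260 genes had an r over 0.95, so these 3 were not alone in following it closely.

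Smo was most closely followed by Smpd2, a sphingomyelinase (r = 0.992), Tm7sf3 (0.992) and Cenpx (0.991), and 184 genes had an r over 0.95. Smpd2 had log2 values of 9.64, 8.69 and 9.21 in KrP samples and 9.14, 7.72 and 8.71 in WT samples, again highest in KrP 1 and lowest in WT 2. Its adjusted p by limma was 0.439, or 0.0295 with the block. For Gas1 the nearest were Itga8, an integrin subunit (r = 0.964), 2610528A11Rik (0.942) and the small nucleolar RNA Snord89 (0.941), with 1 gene over 0.95. Like Gas1, all 3 were highest in WT 3 and lowest in WT 1. These correlations rest on 6 samples and on the genotype difference that many genes share, and are given as a description.

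**Figure D3:**
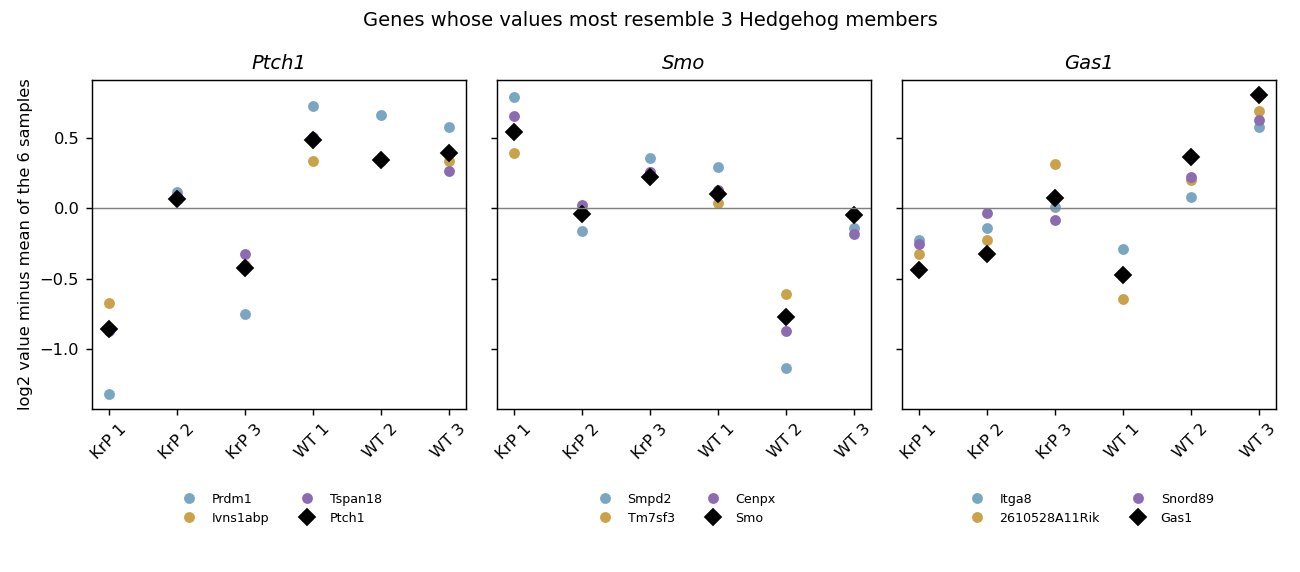
Log2 values minus each gene's mean over the 6 samples (y axis) for Ptch1, Smo and Gas1 (black diamonds) and the 3 genes most correlated with each (coloured circles, hidden by the diamond where they coincide), in the 3 KrP and 3 WT samples. Ptch1 and its followers are lowest in KrP 1, Smo and its followers highest in KrP 1 and lowest in WT 2, and Gas1 and its followers highest in WT 3.

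The remaining pathway genes were counted in 5 lists by role, 72 measured genes in all, of which 3 rose, 2 fell and 67 did not pass. These calls made up 6.94% of the 72, against 2.18% of all genes. With the block 12 rose and 3 fell, or 20.8%, against 8.35% of all genes. The lists were written with some results known, so these shares are a description. Of the 9 genes for ligands and their release, 0 passed with or without the block, and the median log2 difference was -0.06, against 0.01 over all genes. The ligand Shh lay between 5.08 and 5.31 and Dhh between 5.74 and 6.10 in all 6 samples, below the olfactory 95th percentile. Ihh had log2 values of 8.00 to 8.04 in KrP and 8.04 to 8.30 in WT samples (limma adjusted p = 0.692). The largest differences above background were those of Hhat, the acyltransferase that lipidates the ligand (log2 difference -0.39, adjusted p = 0.270), and of Disp1, which releases it from the cell (0.39, adjusted p = 0.257).

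Among 6 measured surface modulators, 1 rose and 0 fell (2 and 0 with the block). Gpc3, a heparan sulphate proteoglycan known to compete with Patched for the ligand, rose 1.80-fold. Its log2 values were 11.10, 11.64 and 11.33 in KrP samples and 10.45, 10.72 and 10.36 in WT samples, without overlap (log2 difference 0.85 ± 0.16 SE, limma adjusted p = 0.0393). That call ended without KrP 3 (adjusted p = 0.186), WT 1 (0.105), WT 2 (0.0573) or WT 3 (0.185). Gpc6, a related glypican, also had all KrP values (8.70 to 8.91) above all WT values (7.92 to 8.50), with a log2 difference of 0.62 and an adjusted p of 0.112, or 0.0469 with the block.

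Of 14 measured regulators inside the cell, 0 passed, and with the block 2 rose, Btrc and Prkaca. Sufu, which holds Gli proteins in check, had log2 values of 9.99 to 10.04 in KrP and 9.84 to 9.94 in WT samples, a difference of 0.15 ± 0.10 (SE; adjusted p = 0.545). Kif7, the ciliary kinesin that organises Sufu and Gli, lay between 7.16 and 7.31 in KrP and between 7.29 and 7.38 in WT samples (log2 difference -0.09, adjusted p = 0.774). Btrc, a ubiquitin ligase subunit that recognises phosphorylated Gli proteins, had a log2 difference of 0.52 (limma adjusted p = 0.249, or 0.0237 with the block). Prkaca, a catalytic subunit of the protein kinase A that phosphorylates them, had 0.43 (0.420, or 0.0351 with the block).

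Of 28 measured genes of the primary cilium, 0 passed, while 25 had a higher mean in KrP samples, with a median log2 difference of 0.25. Over all genes 51.4% were higher, with a median of 0.01. With the block 3 of the 28 rose, Evc and Cep164 and, chosen after its value was seen, Iqce. Evc, a ciliary partner of Smo, had log2 values of 8.25, 7.76 and 8.06 in KrP samples and 7.41, 7.19 and 7.48 in WT samples (log2 difference 0.66 ± 0.16 SE, limma adjusted p = 0.0823, or 0.0171 with the block). Cep164, needed to assemble the cilium, had a log2 difference of 0.61 (0.195, or 0.0284 with the block). Of the 28 genes, 75.0% were highest in KrP 1, against 21.8% of all genes, and 53.6% were lowest in WT 2, against 20.1%. The list median was 0.17 without KrP 1 and 0.21 without WT 2. Smo had the same 2 extreme samples. This pattern was not particular to the cilium list. Of the 14 regulators inside the cell, 12 had a higher mean in KrP, 64.3% were highest in KrP 1 and 42.9% were lowest in WT 2. Of the 9 genes for ligands and their release, 0 were highest in KrP 1.

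Genes reported to respond to Hedgehog signalling in various tissues passed in both directions. Of 15 measured, 2 rose, 2 fell and 11 did not pass, with a median log2 difference of 0.19 (5 rose and 3 fell with the block, which added Foxf1, Foxl1 and Rab34 as higher and Foxc2 as lower, named after their values were seen). The list was written with the changes of some members known, so its counts are no independent evidence of a direction. The Wnt inhibitor Sfrp1 rose 4.91-fold, with log2 values of 11.24 to 11.61 in KrP and 8.88 to 9.41 in WT samples (limma adjusted p = 0.00126), and passed without each sample in turn. The nuclear receptor Nr2f2 rose 1.87-fold, a call that ended without KrP 3 (limma adjusted p = 0.0764), WT 2 (0.0531) or WT 3 (0.0980).

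The 2 genes of that list that fell act in the cell cycle. Another cyclin of the same list, Ccnd2, named after its value was seen, was higher in KrP without passing (log2 difference 0.35, limma adjusted p = 0.229). Of 5 measured proliferation markers, a separate list, 0 passed with or without the block, and the median log2 difference was 0.06. The 2 above background were Pcna (log2 difference -0.15, limma adjusted p = 0.436) and Mcm2 (0.06, limma adjusted p = 0.936). Whether fewer cells were cycling in KrP samples was not tested. Cyclin D1 (Ccnd1) was 6.05-fold lower, with log2 values of 8.10, 9.46 and 8.11 in KrP samples and 11.58, 10.69 and 11.19 in WT samples (limma adjusted p = 0.0160). Its partner kinase Cdk6 was 2.22-fold lower, at 9.76, 10.40 and 9.95 in KrP samples and 11.16, 11.20 and 11.21 in WT samples (adjusted p = 0.0131). Both fell without overlap, and in both KrP 2 lay nearest to WT, as for Ptch1. These calls ended in several fits: without KrP 3 the limma adjusted p of Ccnd1 was 0.0955 and that of Cdk6 0.0962, without WT 1 it was 0.0587 and 0.0512, without WT 3 it was 0.0863 and 0.0825, and without WT 2 it was 0.0519 for Cdk6.

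**Figure D4:**
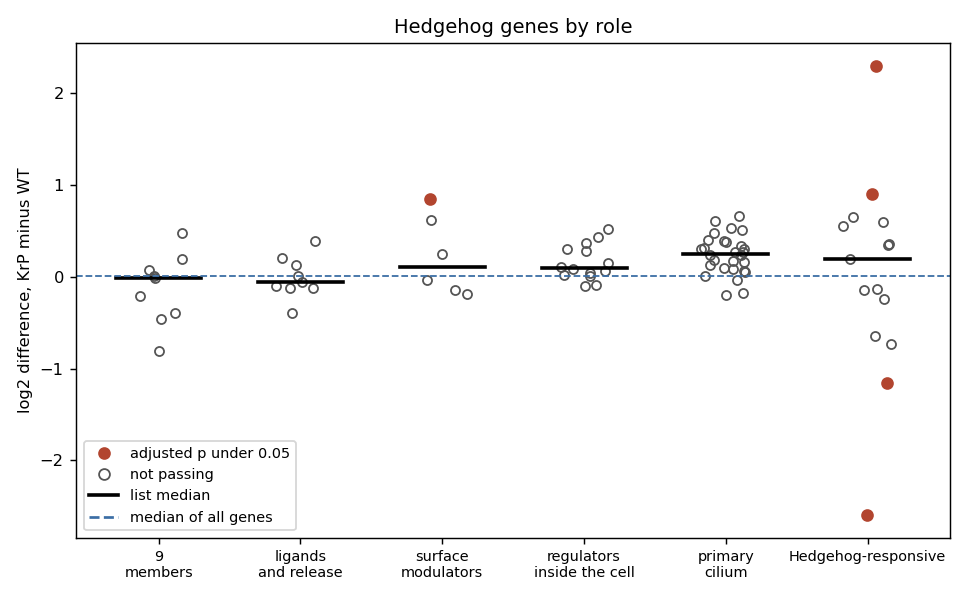
Log2 difference between KrP and WT fibroblasts for the 9 Hedgehog genes and 5 further lists of pathway genes by role (x axis). Each circle is a gene, filled where the limma adjusted p was under 0.05, black bars are list medians and the dashed line is the median of all genes (0.01); the 5 filled genes are Gpc3 among surface modulators and Sfrp1, Nr2f2, Cdk6 and Ccnd1 among responsive genes.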

How the data were processed

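The deposited table holds log2 expression values made by the authors, 1 per probe set and array. RMA and Partek are named without version or role in the submitters' processing notes, and a genome build is not given in the sources used here. Of 34390 probe sets, 23521 had 1 gene symbol in the platform annotation, 1814 several and 9055 none. Names were updated by gene ID through RefSeq (23328 matched). Where a gene had several probe sets, the brightest was kept, leaving 22180 genes, with no filter or further normalisation. The number of arrays limits the precision.

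KrP and WT were compared with limma 3.58.1 in R 4.3.3 (trend on mean level, no block), with Benjamini-Hochberg adjustment over all genes and a threshold of 0.05. The fit was also run on simulated data with independent noise and changes larger than that of any member. That run does not bear on differences of the members' size or on deviations that samples share. Log2 differences are KrP minus WT. Permutation tests used scipy 1.17.1. Samples share the numbers 1 to 3 across groups: deviations from the group means correlated by 0.414, 0.350 and 0.120 between same-numbered samples. All 3 exceeded 0.1, so blocked values are given where they change a call. No label states this pairing, which was read off the values themselves, and blocked p-values can be too small for that reason.

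The members and lists were chosen with earlier results of these data known. The text names all members, 5 further pathway genes (the 3 ligands, Sufu and Kif7), up to 4 called genes per list and direction or else the 2 with the largest change above background, and the 3 genes most correlated with each of the 3 most variable members. Alternatives changed the block, trend, prior, weights, filter, normalisation, probe set rule and samples.

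The descriptions of KrP 2 and KrP 3 name other keratins than K14, while their source names and genotypes name K14, which was used. Pthlh, the gene of PTHrP, was not analysed here, so the genotype labels had no direct check.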

Additional observations from a re-analysis of the deposited data

How the results depend on the processing

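With the replicate block, 2 members passed (Ptch1 at -0.81 and Smo at 0.48 on the log2 scale), as did 15 genes of the further lists and 1851 genes in all. Array weights, which ran from 0.409 to 7.91 and so let KrP 3 and WT 3 dominate, gave 2 members (Ptch1 at -0.82 and Boc at -0.64), 31 list genes and 6410 genes in all. Without replicate 2 of both groups, an alternative added after seeing the data, 1 member passed (Ptch1, -1.08) and 890 genes in all. Leaving out each sample in turn gave 0 to 1 members, 1 to 9 list genes and 85 to 1116 genes in all. Over these fits the log2 difference of Ptch1 ran from -1.05 to -0.59, and it passed without KrP 2. Signs turned for members near 0: Gli2 ran from -0.0017 to 0.30, Gli3 from -0.0017 to 0.13, Hhip from -0.13 to 0.17 and Cdon from -0.10 to 0.09. Hhip was 0.01 with weights, 0.02 with quantile normalisation and 0.10 without replicate 2 of both groups; Cdon was -0.08, -0.09 and -0.10 in the same fits, and Gli3 -0.02 in the last. The causes were not tested. Leaving out the trend, a robust prior, both filters, median centring and averaged probe sets changed no member's call or sign; Gli1 and Hhip were not among the genes kept by the filter at 50%.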

Other observations

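Dermal papilla genes, which mark the fibroblasts at the base of the hair follicle that respond to Hedgehog ligands, were mixed. Of 17 measured, 1 rose, 0 fell and 16 did not pass, where 2.18% of all genes passed. With the block 3 rose and 4 fell, where 8.35% of all genes passed. The block added Fgf7 and Fgf10 as higher and Alpl, Bmp6, Lef1 and Rspo3 as lower. The median log2 difference was -0.15, against 0.01 over all genes. Sox18, a transcription factor of the early papilla that endothelial cells also use, rose 3.88-fold, with log2 values of 8.78, 8.06 and 8.61 in KrP samples and 6.30, 6.83 and 6.45 in WT samples (limma adjusted p = 0.00551). Fgf10, a growth factor for nearby epithelium, had log2 values of 10.89, 8.92 and 10.35 in KrP samples and 8.91, 8.13 and 8.52 in WT samples. Its log2 difference was 1.53 ± 0.45 (SE; limma adjusted p = 0.148, or 0.0121 with the block), and KrP 2 lay within 0.01 of WT 1.

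Markers of other cell types were counted beside the Hedgehog genes, and their counts stand against the 2.18% of all genes that passed. Of 6 immune markers 1 rose and 0 fell, of 6 mural cell markers 0 rose and 1 fell, and of 11 keratinocyte, 6 melanocyte, 5 Schwann cell, 5 adipocyte and 5 skeletal muscle markers 0 passed. The genes that passed, named after their values were seen, were Csf1r, a macrophage growth factor receptor (log2 difference 0.73), and the proteoglycan Cspg4 (-1.10). The other 5 immune markers had lower means in KrP samples. In the mural list 4 of 6 had higher means, among them Acta2, also named after its values were seen, at a log2 difference of 1.31 without overlap (limma adjusted p = 0.154, or 0.0138 with the block).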
